A study of Mus musculus and Homo sapiens with 20 samples.

Results

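The genes described here are 10 transcription factor genes that specify endoderm and heart: Gata4, Gata6, Gata5, Sox17, Foxa1, Foxa2, Nkx2-5, Hand1, Hand2 and Tbx5. They were taken by GENCODE symbol, and all 10 were found among the 21911 protein-coding genes of the mouse annotation (mm10) and again, in upper case, among the 20007 of the human annotation (hg38). The data are 20 lists of CUT&Tag peaks; in this method an antibody against a histone mark brings a transposase to the chromatin that carries it, where the DNA is cut and tagged. Lists for H2AK119ub and H3K27me3 came from mouse embryonic stem (mES) cells, either wild-type (WT) or knockout (KO) for Tet2, which were kept in medium with LIF and the inhibitors CHIR99021 and PD0325901. Lists for the same 2 marks came from WT and Tet2-/- LK cells, the Lin- c-Kit+ haematopoietic stem and progenitor cells (HSPCs) of the bone marrow of mice on a C57BL/6 background, 6 to 8 weeks old. The loss of Tet2 in these mice is germline, so every cell of the marrow and its niche carries it. Lists for H2AK119ub alone came from K562 cells, a human chronic myeloid leukaemia line, nucleofected with a control siRNA (siControl) or with an siRNA against MBD6 (siMBD6). Each of the 10 groups holds 2 libraries. The study's methods speak of biological replicates, but the sources used here do not say whether these are separate cultures or animals, whether marrow was pooled over mice, or what the TET2 status of these K562 libraries is, so p-values measure only the spread between these libraries.

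In the mouse, the zinc-finger genes are Gata4 (chr14:63198922-63271692, minus strand), a regulator of heart and foregut, Gata6 (chr18:11052064-11085635, plus strand), which also specifies the extraembryonic endoderm, and Gata5 (chr2:180325133-180334699, minus strand), active in endocardium and gut. Sox17 (chr1:4490931-4497354, minus strand) encodes an HMG-box factor of the definitive endoderm. Foxa1 (chr12:57540628-57546916, minus strand) and Foxa2 (chr2:148042877-148046969, minus strand) encode forkhead pioneer factors of the endoderm, and Foxa2 also acts in node, notochord and floor plate. The cardiac genes are Nkx2-5 (chr17:26838664-26845009, minus strand), a homeodomain factor of heart progenitors, Hand1 (chr11:57828705-57832818, minus strand) and Hand2 (chr8:57320983-57324633, plus strand), basic helix-loop-helix factors of the ventricles, and Tbx5 (chr5:119832668-119885219, plus strand), a T-box factor of heart and forelimb. These coordinates are mm10 gene spans.

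The 2 marks are laid down by the Polycomb complexes, which keep developmental genes silent outside their own lineage. Polycomb repressive complex 1 (PRC1) attaches the ubiquitin of H2AK119ub to histone H2A, PRC2 adds the methyl groups of H3K27me3 to histone H3, and each complex can bind the mark of the other. Their domains are seeded at CpG-rich starts of genes for lineage regulators and can spread from there. TET2 is a dioxygenase that oxidises 5-methylcytosine in DNA and RNA, and MBD6 carries a methyl-CpG-binding domain and joins the BAP1 deubiquitinase complex, which removes H2AK119ub.

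The bases just upstream of 4 starts are shown because the results turn on these genes. Runs of joined peaks at Gata5 and Nkx2-5 differed in width between Tet2 KO and WT cells. Foxa2 had among the widest H3K27me3 domains in HSPCs. The bases before the Foxa1 start were, on average over the lists, only partly under H2AK119ub. The bases shown are RefSeq promoter sequence (GRCm38.p6), 5′ to 3′ on the gene's strand, without bases that lie in a GENCODE exon, and CG dinucleotides are in capitals. Gata5 is chr2:180334700-180334929, Foxa2 chr2:148046970-148047219, Nkx2-5 chr17:26841609-26841815 and Foxa1 chr12:57546122-57546361, all on the minus strand.
Gata5: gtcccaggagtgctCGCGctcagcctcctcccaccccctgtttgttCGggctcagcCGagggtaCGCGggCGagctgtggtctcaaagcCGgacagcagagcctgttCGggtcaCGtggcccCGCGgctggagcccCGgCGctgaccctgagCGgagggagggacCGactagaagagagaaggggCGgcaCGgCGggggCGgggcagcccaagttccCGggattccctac
Foxa2: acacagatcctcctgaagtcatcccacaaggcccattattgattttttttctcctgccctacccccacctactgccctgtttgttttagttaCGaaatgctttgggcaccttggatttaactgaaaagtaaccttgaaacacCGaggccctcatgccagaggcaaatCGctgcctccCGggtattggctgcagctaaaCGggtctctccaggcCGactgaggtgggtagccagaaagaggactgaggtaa
Nkx2-5: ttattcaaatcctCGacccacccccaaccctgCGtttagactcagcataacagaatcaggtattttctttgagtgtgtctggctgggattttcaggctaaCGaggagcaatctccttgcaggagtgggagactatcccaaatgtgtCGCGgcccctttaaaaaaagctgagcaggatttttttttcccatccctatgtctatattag
Foxa1: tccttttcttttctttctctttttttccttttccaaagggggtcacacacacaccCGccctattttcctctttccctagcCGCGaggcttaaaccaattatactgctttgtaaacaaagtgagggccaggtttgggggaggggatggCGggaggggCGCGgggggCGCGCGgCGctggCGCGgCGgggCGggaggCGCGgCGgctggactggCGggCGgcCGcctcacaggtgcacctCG
RefSeq promoters were matched for 5 of the 10 genes, these 4 and Hand2. The RefSeq start lies inside the gene, 3444 bp at Nkx2-5, 805 bp at Foxa1 and 20 bp at Gata5 from the GENCODE start used for the domains. In the full window of 250 bases upstream of the RefSeq start, Gata5 held 22 CG dinucleotides, a count reached by 14.8% of 32851 mouse promoters, Foxa1 held 21 (16.3%), Hand2 15 (27.3%), Nkx2-5 held 8 (43.0%) and Foxa2 held 6 (50.4%), the median of all promoters. H3K27me3 peaks covered 100% of each of the 5 windows in both cell types. As a mean of 4 lists, H2AK119ub covered 75% of the Foxa1 window in HSPCs and 63.7% in mES cells, 75% of the Hand2 window in HSPCs, and otherwise 100%. Such a mean can join lists with full and with little coverage. Within 1 kb of the Hand2 start, HSPC coverage was 100% in both KO lists and 66.1% ± 47.9 SD in WT (n = 2). The GATA motif AGATAA, searched on both strands, occurred in the Hand2 window only, and 9.99% of all promoter windows hold it. In a wider window, from 1 kb upstream to 1 kb downstream of the GENCODE start, the 10 genes held 27 (Gata4) to 139 (Hand2) CG dinucleotides with a median of 82.5, against a median of 61 over all genes, and there Foxa2 (94) was not below Foxa1 (91). The GENCODE start of Gata4 lies 26421 bp upstream of the start of its coding transcript, and that of human GATA4 27243 bp. These are the largest such distances among the 10 genes. All windows and domains of Gata4 below are read at that distal start.

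The lists held 85121 to 167378 peaks that covered 132 to 260 Mb, with no read counts or scores, so the depth behind a peak is unknown and a gap between peaks means only that none was called. Among the HSPC H2AK119ub lists, WT replicate 2 was the shortest (112734 peaks, 139 Mb, against 129892 to 136735 peaks and 169 to 177 Mb), and the tests at the 10 genes that use it are also given without it. The HSPC H2AK119ub lists (139 to 177 Mb) all covered less than the mES lists of that mark (235 to 260 Mb), which bears on each comparison of H2AK119ub between these cell types. The 2 siMBD6 lists (178 and 190 Mb) covered more than the siControl lists (132 Mb each). Peak lists cannot show expression, so the labels were checked by the marks at marker genes. An H3K27me3 peak lay within 1 kb of the start at 1 to 3 of 7 pluripotency markers in mES lists (summed window coverage 87.8 to 123%). In every HSPC list it did at 6 of 7 (600%). Pou5f1, Nanog and Tdgf1 had none in mES cells. Esrrb went the other way, with a mean of 93.2% of its window covered in mES cells and a domain of 29.3 kb. The haematopoietic markers carried less H3K27me3 in HSPCs (5 to 6 of 8 with a peak, Ptprc and Myb at 0, summed window coverage 220 to 289%) than in mES cells (6 to 7 of 8, 501 to 543%). H2AK119ub separated the labels less: pluripotency markers had a peak at 7 of 7 starts in mES lists and at 4 to 6 in HSPC lists, and the haematopoietic markers summed to 540 to 595% in HSPCs and 492 to 555% in mES cells. Markers of other marrow cells carried H3K27me3 in HSPCs at 1 to 3 of 5 starts (summed 25.0 to 99.6%, Hbb-bt at 0) and fibroblast markers at 4 of 4 (333 to 365%), and the part of other cell types in the results was not tested.

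At the starts themselves the 10 genes were alike. H3K27me3 peaks covered 100% of the window from 1 kb upstream to 1 kb downstream of the start of every one of the 10 genes in all 8 lists, whereas 12.9 to 19.9% of all genes were fully covered in mES cells and 16.9 to 17.7% in HSPCs. H2AK119ub covered the whole window of 7 to 9 of the 10 genes per mES list and of 3 to 7 per HSPC list, against 15.6 to 16.2% and 13.3 to 17.6% of all genes. The lowest coverage in mES cells was at Hand2 (74.3 and 87.1% in WT, 75.1 and 76.4% in KO). In HSPCs it was at Tbx5, with 41.0 and 0% in WT and 41.4 and 38.5% in KO, so the Tbx5 start was the only one of the 10 without an H2AK119ub peak in any mouse list, and that list was the short one.

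Away from the start the genes differed, and this was measured as domain width: the length of the run of peaks, joined across gaps of up to 1 kb, that touches the window at the start. In HSPCs the widest H3K27me3 domains belonged to Tbx5 (106 and 89.1 kb in WT, 100.8 and 89.8 kb in KO) and Gata4 (89.5 and 104 kb in WT, 89.1 and 103.01 kb in KO). Foxa2 followed with 57.7 and 81.7 kb in WT and 95 and 98.3 kb in KO, and Gata5 with 70.5, 71.6, 72.6 and 72.2 kb in the same order. The narrowest were Gata6 (19.4 to 19.7 kb) and Sox17 (13.7 to 20.7 kb). In between lay Nkx2-5 (mean 59.3 kb), Hand2 (55.6 kb), Foxa1 (41.2 kb) and Hand1 (32.8 kb), and of the 9 neighbouring pairs in this order 4 did not overlap between lists: Gata5 above Nkx2-5, Hand2 above Foxa1, Foxa1 above Hand1 and Hand1 above Gata6. The other 5 neighbours cannot be ranked beyond their spread. Between 8 and 9 of the 10 genes were among the widest 10% of all genes with an H3K27me3 domain in HSPCs, which began at 18.3 to 20.6 kb.

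In mES cells the order for the same mark was another. Hand2 had the widest H3K27me3 domain (45.3 and 45.5 kb in WT, 46.4 and 45.4 kb in KO), above Tbx5 (35.4 to 42.8 kb), Foxa2 (27.1 to 33.0 kb) and Foxa1 (25.6 to 26.5 kb). Nkx2-5, Gata5, Gata4, Sox17, Hand1 and Gata6 had means of 20.8, 20.6, 18.9, 18.9, 18.1 and 17.9 kb, and each overlapped the next in this order, although Gata5 (18.8 to 21.9 kb) lay above Hand1 (17.0 to 18.6 kb). Gata4 was the least even, with 15.6 and 10.6 kb in WT and 39.3 and 10.1 kb in KO. For H2AK119ub in mES cells the means ran from Hand2 (30.4 kb), Gata5 (25.9 kb) and Tbx5 (21 kb) through Hand1, Foxa2, Foxa1, Nkx2-5 and Gata6 (16.2 to 11.1 kb) to Gata4 (5.85 kb) and Sox17 (5.59 kb), and 2 of 9 neighbouring pairs did not overlap. In HSPCs H2AK119ub was led by Gata5 (16.2 kb), Hand1 (14.4 kb) and Foxa2 (14.2 kb) and ended with Tbx5 (3.48 kb), and every neighbouring pair overlapped.

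**Figure D1:**
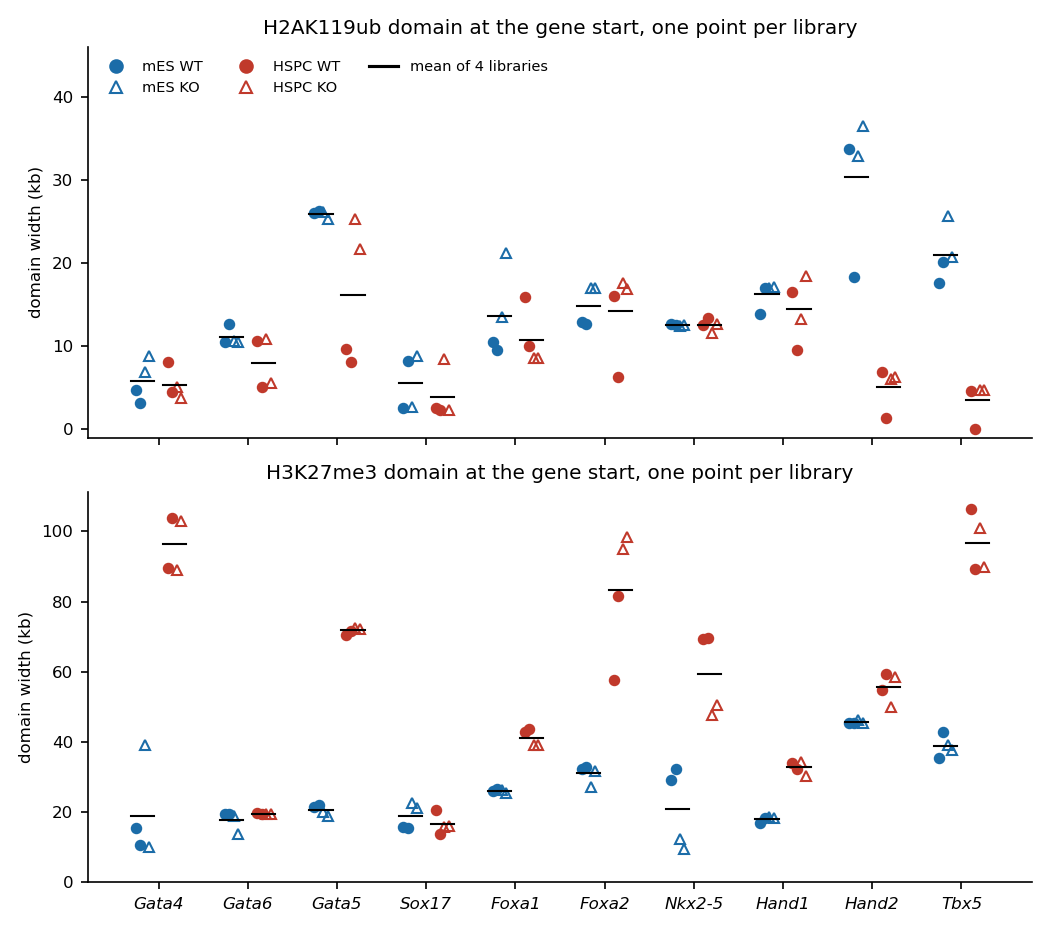
Domain width in kb (vertical axis) at the start of each of the 10 genes (horizontal axis) for H2AK119ub (upper panel) and H3K27me3 (lower panel); each point is a library, with mES cells in blue, HSPCs in red, WT as filled circles, KO as open triangles and the mean of 4 libraries as a black bar. HSPC H3K27me3 domains reach 106 kb at Tbx5, whereas HSPC H2AK119ub domains stay at or under 25.4 kb.

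How the marks at these genes differ between the pluripotent and the blood progenitor state was tested first, over both genotypes, with limma on log2(width + 500 bp) across 17766 genes; this scale understates changes of narrow domains. H3K27me3 domains were wider in HSPCs at 6 of the 10 genes and narrower at none, where 39.5% of all genes tested were called wider and 18.6% narrower. The median change over the 10 genes was 1.07, and over all genes 0.50. By domain width at the distal start used, Gata4 changed most, from a mean of 18.9 kb in mES cells to 96.3 kb in HSPCs (log2 change 2.55 ± 0.37 SE, adjusted p = 0.000214), with every HSPC list above every mES list. The rise at Gata5 was 1.78 ± 0.12 (adjusted p = 1.06e-06), at Nkx2-5 1.65 ± 0.13 (3.06e-06), at Foxa2 1.38 ± 0.25 (0.000746), at Hand1 0.84 ± 0.19 (0.00315) and at Foxa1 0.65 ± 0.18 (0.0106). Tbx5 was higher by 1.30 ± 0.54 with all 4 HSPC lists above all 4 mES lists but missed the threshold (adjusted p = 0.0611). In all, 8 of the 10 genes had HSPC lists wholly above the mES lists, as 26.7% of all genes did. Hand2 (0.28), Gata6 (0.14) and Sox17 (−0.18) did not pass. In WT lists alone 3 genes were called wider, as were 21.6% of all genes. Cell type goes with the source of the cells, their culture and any library batch, which cannot be told apart here.

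The widening lay on different sides of the start at different genes. In HSPCs the Gata5 domain reached 59.8 to 61.2 kb upstream of its start, against 9.98 to 10.5 kb in mES cells, while its downstream reach was 9.33 to 12.8 kb against 8.49 to 11.6 kb. At Gata4 the gain was downstream, over the gene body and past its end, with 81.6 to 84.9 kb in HSPCs against 7.18 to 35.1 kb in mES cells. Hand1 gained upstream (22.2 to 25.3 kb against 9.21 to 10.5 kb) and Foxa1 mostly downstream (29.2 to 29.5 kb against 16.5 to 16.7 kb). Gata6, whose width did not pass the test, had nearly the same edges in 7 of the 8 lists, 7.83 to 8.24 kb upstream and 11.2 to 11.5 kb downstream, and the exception was mES KO replicate 2 with 5.64 kb downstream. The HSPC domain of Gata4 took in the start of Neil2, a DNA glycosylase gene 77.8 kb away, in all 4 lists, and no other protein-coding start lay inside a domain of these genes in all 4 lists of a cell type and mark.

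**Figure D2:**
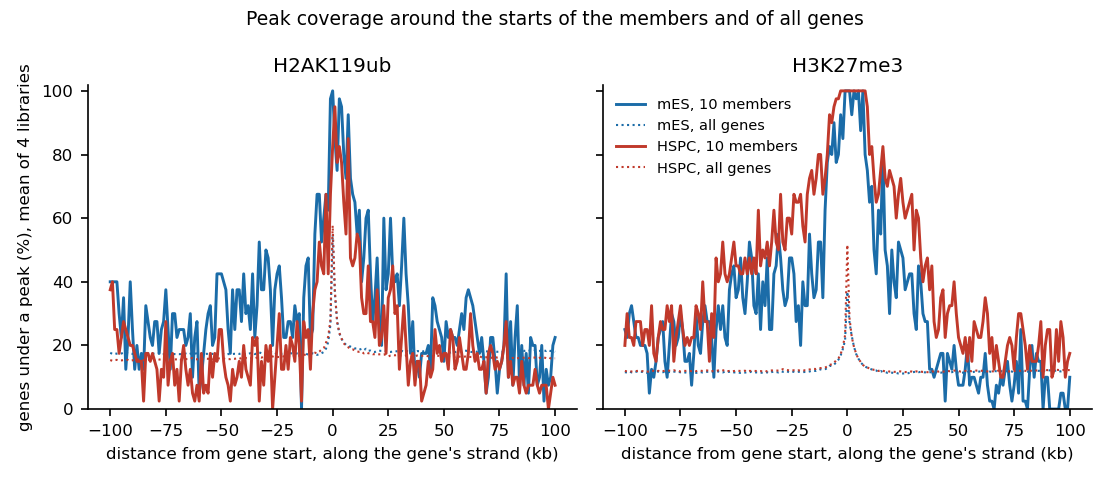
Share of genes under a peak (vertical axis, percent, mean of 4 libraries) against the distance in kb from the gene start along the gene's strand (horizontal axis), for H2AK119ub (left) and H3K27me3 (right); solid lines are the 10 genes, dotted lines all genes, blue mES cells and red HSPCs. At 20 kb upstream H3K27me3 covers 57.5% of the 10 genes in HSPCs and 40% in mES cells, against 12.0% and 11.6% of all genes, and at the start it covers 100% in both.

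The profile was read at single bases spaced 1 kb apart. In HSPCs at least 50% of the 10 genes were under H3K27me3 at 72 such positions, between 56 kb upstream and 32 kb downstream. In mES cells they were at 35 positions, between 44 kb upstream and 24 kb downstream. For H2AK119ub the order was the other way round, with 13 such positions in HSPCs and 28 in mES cells.

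H2AK119ub domains were narrower in HSPCs than in mES cells at 3 of the 10 genes, where 19.7% of all genes were called narrower and 27.1% wider. The median over the 10 genes was −0.40, and over all genes 0.15; without the short list the same 3 genes were called (17.5% of all genes) and the medians were −0.21 and 0.18. At Hand2 the widths were 33.8 and 18.3 kb in WT and 32.9 and 36.4 kb in KO mES cells, and 6.84, 1.33, 5.99 and 6.33 kb in HSPCs, so that the groups did not overlap (−2.60 ± 0.36, adjusted p = 0.000271). At Tbx5 they were 17.6 to 25.6 kb in mES cells and, in HSPCs, 4.55 kb and no domain in WT and 4.66 and 4.71 kb in KO (−2.89 ± 0.54, adjusted p = 0.00169). Without the short HSPC list the changes were −2.10 at Hand2 and −2.06 at Tbx5, both still past the threshold, and these 2 of the 10 genes were those whose lists did not overlap (13.1% of all genes with that list, 13.7% without it); with WT replicate 1 left out instead, 6 of the 10 genes and 21.8% of all genes were called narrower. Gata5 fell by 0.82 ± 0.12 (adjusted p = 0.000356; −0.76 without the short list), although KO HSPCs (25.4 and 21.6 kb) came close to mES cells (25.3 to 26.2 kb) and WT HSPCs (9.62 and 8.11 kb) did not. The Hand2 call was lost when peaks were not joined (−0.05) and the Tbx5 call in WT lists alone (−3.60, adjusted p = 0.051).

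Since a domain ends at any gap over 1 kb, the length covered by peaks within 50 kb on each side of the start was also tested, an alternative chosen after seeing the data, over 20557 genes. By this measure 8 of the 10 genes had less H2AK119ub in HSPCs, where 31.7% of all genes had less, with a median of −0.80 against −0.01; without the short list the same 8 genes passed (27.7% of all genes), with −0.68 against 0.01. Tbx5 fell from 59.9 to 26.5 kb (log2 change −1.20 ± 0.08, adjusted p = 5.25e-07), Sox17 from 15.4 to 7.47 kb (−1.04 ± 0.15, 0.000112), Gata6 from 21.6 to 11.3 kb (−0.95 ± 0.15, 0.000223) and Hand2 from 37.9 to 20.9 kb (−0.93 ± 0.15, 0.000292). Nkx2-5 (44.7 and 45.6 kb) and Hand1 (52.5 and 44.6 kb) did not pass. H3K27me3 in the same window was higher in HSPCs at 6 genes (39.6% of all genes), led by Foxa2 with 82.9 against 40.8 kb (1.03 ± 0.16, adjusted p = 9.82e-05), and lower at Sox17 (37.5%), with 18.8 against 26.7 kb (−0.48 ± 0.15, 0.011). Gata4, first by domain width, had 94.6 against 63.0 kb here (0.59 ± 0.10), which nearly fills the window in HSPCs.

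**Figure D3:**
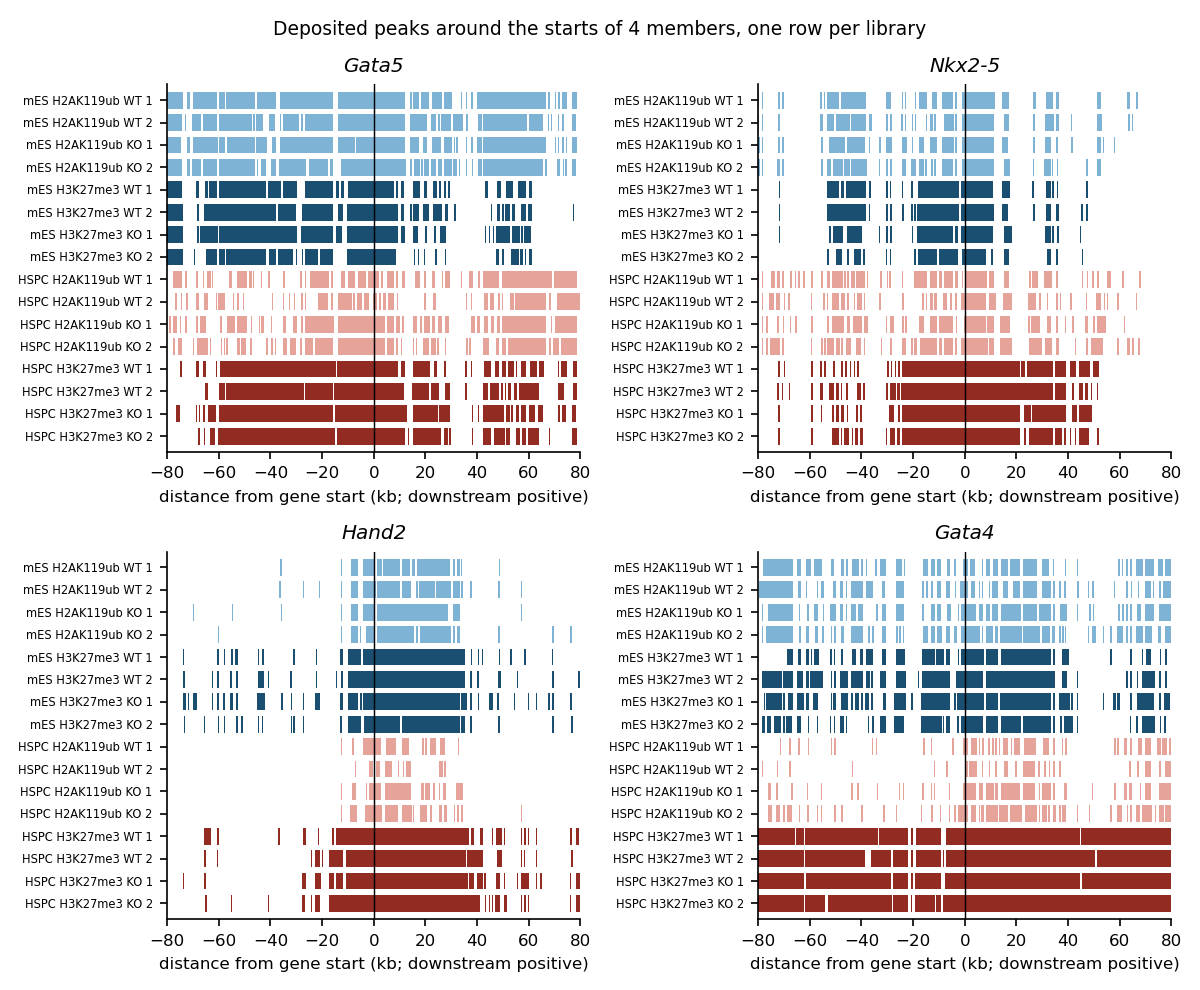
Deposited peaks (bars) of the 16 mouse libraries (rows) around the starts of Gata5, Nkx2-5, Hand2 and Gata4, by distance in kb from the start (downstream positive; pale bars H2AK119ub, dark bars H3K27me3, blue mES cells, red HSPCs). HSPC H3K27me3 runs about 60 kb upstream of Gata5 (59.8 to 61.2 kb). In the mES H3K27me3 rows of Nkx2-5, the run joined across gaps of up to 1 kb reaches 18 and 20.7 kb upstream in WT and 1.46 and 1.23 kb in KO.

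Gene span coverage, the share of the annotated gene under peaks, and start window coverage differed at a few genes, in numbers not far from the shares of all genes. H2AK119ub covered less of the span in HSPCs, with no overlap between lists, at 3 of the 10 genes (20.6% of all genes), and the start window of Tbx5 did the same (mean 30.2% against 100%; 8.58% of all genes). Without the short list the counts were the same, with 21% and 8.98% of all genes. H3K27me3 covered more of the Gata4 span (99.3% against 58.4%) and of the Foxa1 span (100% against 94.5%), 2 of the 10 genes where 27.1% of all genes did so. An exact permutation test of 4 lists against 4 within genotype cannot give a two-sided p below 0.0556, the value for these genes.

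Within HSPCs the 2 marks were unequal at every one of the 10 genes: the H2AK119ub domain was narrower than the H3K27me3 domain at 10 of 10, where 22.7% of all genes tested had the narrower H2AK119ub domain and 44.1% the wider. The differences ran from −1.20 ± 0.19 at Hand1 (14.4 against 32.8 kb) to −5.07 ± 0.54 at Tbx5 (3.48 against 96.5 kb), with adjusted p at most 0.00197 (Sox17) and a median of −2.22 against 0.54 over all genes. Gata4 differed by −4.10 ± 0.37 (5.35 against 96.3 kb) and Hand2 by −3.50 ± 0.36 (5.12 against 55.6 kb). The lists of no gene overlapped, and the same was so for 15.0% of all genes in that direction. Without the short HSPC list 10 of 10 were again called (21.7% of all genes), with a median of −2.21. Within 50 kb, 9 of the 10 passed (26.3% of all genes), and the exception was Hand1 with 44.6 kb of H2AK119ub and 40.8 kb of H3K27me3; without the short list the same 9 passed (24.9%), and Hand1 passed in the other direction (0.24 ± 0.09, adjusted p = 0.034; 55% of all genes). The 2 marks were read with different antibodies, so a difference between them can also lie in how many peaks each yields, and the all-gene values are the measure of that.

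In mES cells the marks were closer. H2AK119ub domains were narrower at 6 of the 10 genes (13.4% of all genes), by 0.52 at Nkx2-5 to 1.84 at Sox17 on the log2 scale, wider at Gata5 (0.33 ± 0.12, adjusted p = 0.0394; 41.6% of all genes), and not past the threshold at Hand1, Hand2 and Tbx5. The Nkx2-5 call averages genotypes that differ, and its lists overlapped. Mean H2AK119ub width there was 12.6 kb in WT and 12.5 kb in KO, against 30.7 and 10.9 kb of H3K27me3. The Gata5 domains were 26.0 and 26.2 kb in WT and 26.1 and 25.3 kb in KO for H2AK119ub, above the 18.8 to 21.9 kb of H3K27me3 in every list. These mES calls were less stable: that of Gata6 (−0.66, adjusted p = 0.0476) was lost in 15 of 20 alternatives and that of Gata5 in 12 of 20.

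The 2 marks also lay on top of each other to a different degree. In a window of 50 kb on each side of the start, a median of 85.8% of the H2AK119ub-covered bases of a gene were also under H3K27me3 in mES cells (55.2% at Hand1 to 98.2% at Hand2) and 96.3% in HSPCs (54.4% at Hand1 to 100% at Gata4 and Hand2). Genome-wide the share was 41.9 to 57.5% in mES lists and 37.0 to 39.8% in HSPC lists. This is not a like measure, since H3K27me3 filled much of the window at several of the 10 genes. In HSPCs it covered a mean of 18.8 kb (Sox17) to 94.6 kb (Gata4), and where it covers most bases a high share is fixed in advance. The reverse share, H3K27me3-covered bases also under H2AK119ub, had a median of 69.6% in mES cells and 34.0% in HSPCs (23.3% at Foxa2 to 59.1% at Hand1), close to the genome-wide 61.2 to 69.2% and 31.4 to 38.5%. In HSPCs the share of H2AK119ub-covered bases under H3K27me3 was thus lowest at Hand1, next at Nkx2-5 (86.8%), and 91.0% or more at the other 8 genes.

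CpG content differed between these classes of bases, as a description of bases called in both WT replicates. In the windows of the 10 genes in HSPCs, bases under both marks (122 kb) held 3.12 CG dinucleotides per 100 bp, bases under H2AK119ub alone (21.7 kb) 1.59, bases under H3K27me3 alone (454 kb) 1.20, and bases under neither (402 kb) 0.81. In mES cells the values were 2.21 (290 kb), 1.4 (57.3 kb), 1.16 (148 kb) and 0.78 (506 kb). The density under both marks exceeded that under H3K27me3 alone at 10 of 10 genes in each cell type, and the genome as a whole had the same order, with 3.09, 1.82, 1.37 and 0.77 in HSPCs and 1.89, 1.65, 1.27 and 0.75 in mES cells.

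Whether loss of Tet2 changed the domains was tested within each cell type and mark, 2 lists against 2. In mES cells no H2AK119ub domain of the 10 genes passed limma's threshold (0.484% of all genes were called wider and 0.614% narrower), and the unadjusted p of 1 gene, Foxa1, was under 0.05 (10.4 and 9.56 kb in WT, 13.5 and 21.2 kb in KO; 0.73 ± 0.26, adjusted p = 0.389). Changes ran from −0.11 to 0.94, and at 4 of the 10 genes both KO lists lay above both WT lists (12.0% of all genes). Tests of this size can miss much: in a simulation of the HSPC H3K27me3 comparison over 17766 genes, 3% of 100 genes shifted by 1 on the log2 scale were recovered and 54% of 100 shifted by 2. The shifted genes were picked among those with wide domains. Recovery in the mES H2AK119ub comparison was not simulated.

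H3K27me3 in mES cells gave 1 call, Nkx2-5, where 3.83% of all genes were called narrower and 0.439% wider. Its domain was 29.1 and 32.2 kb in WT and 12.4 and 9.46 kb in KO, so that both KO lists lay below both WT lists, as at 4 of the 10 genes and 22.5% of all genes (−1.46 ± 0.18, adjusted p = 0.00163). Upstream the joined run reached 18 and 20.7 kb in WT and 1.46 and 1.23 kb in KO. The downstream reach was 11.1 and 11.5 kb against 10.9 and 8.23 kb. A run ends at any gap over 1 kb, so peaks can lie beyond it. The printed promoter bases were under peaks in both genotypes. The length covered within 50 kb differed less (48.3 and 52.2 kb against 46.2 and 38.2 kb; −0.26, adjusted p = 0.123). Over all genes the median change by this measure was also −0.26. KO replicate 2, with the 38.2 kb, was the shortest mES H3K27me3 list (149 Mb, against 189 to 232 Mb), and the part of list length was not tested. The Nkx2-5 call was also lost when peaks were not joined (−0.22) or were joined across up to 3 kb (−0.12). H2AK119ub at Nkx2-5 was 12.5 to 12.6 kb in all 4 mES lists.

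In HSPCs the H2AK119ub domain of Gata5 was wider in KO, the only call among the 10 genes (3.38% of all genes called wider, 0.687% narrower). It measured 9.62 and 8.11 kb in WT and 25.4 and 21.6 kb in KO (1.36 ± 0.17, adjusted p = 0.00156; KO above WT without overlap at 3 of the 10 genes and 19.7% of all, and without the short list at 3 and 28.1%), reaching 5.94 and 0.341 kb upstream in WT and 13.8 and 13.9 kb in KO. H3K27me3 at the gene was 70.5 to 72.6 kb in all 4 lists. Without the short WT list the change was 1.24 (adjusted p = 0.0028), whereas with peaks joined across up to 3 kb it was 0.47 (adjusted p = 0.833). The effect of Tet2 on this domain differed between HSPCs and mES cells, where it was 26.0, 26.2, 26.1 and 25.3 kb (interaction 1.38 ± 0.24, adjusted p = 0.0147; 1.83% of all genes higher, 0.523% lower).

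More of the set leaned the same way in HSPC H2AK119ub, but the median domain width did so only with the short WT list included. The median change over the 10 genes was 0.53 (0.12 over all genes) with that list and −0.06 without it (0.03 over all genes). Of the genes that did not pass, Tbx5 had 4.55 kb and no domain in WT against 4.66 and 4.71 kb in KO, and Hand2 6.84 and 1.33 kb against 5.99 and 6.33 kb, so that the first WT list was like the KO lists. With WT replicate 1 left out instead, Foxa2, Hand2 and Tbx5 also passed and 4 genes were called, while the share of all genes called wider rose to 9.39%. Covered length within 50 kb was higher in KO at Gata4 (24.8 and 17.8 kb against 34.3 and 37.3 kb; 0.75 ± 0.14, adjusted p = 0.00814) and at Tbx5 (23.6 and 17.5 kb against 30.2 and 34.8 kb; 0.66 ± 0.12, adjusted p = 0.00812), 2 of 10 where 4.67% of all genes were called. Without the short list both still passed, at 0.52 (adjusted p = 0.0497) and 0.45 (0.0415), where 2.13% of all genes did. Here every KO list was above both WT lists, although by this measure Gata5 missed the threshold (0.48, adjusted p = 0.121).

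Coverage could not pass a test here, since 2 lists against 2 cannot go below an exact permutation p of 0.333. In KO HSPCs H2AK119ub covered more of the start window, with no overlap, at Gata4 (94.6% ± 7.67 SD against 54.3% ± 9.15, n = 2 each) and Foxa1 (92.8% against 75.5%), 2 of 10 genes where 18.8% of all genes did so, and more of the gene span at 6 of 10 (19.0%). Without the short WT list the counts were again 2 and 6, with 27% and 25.7% of all genes. Foxa1 nonetheless had the narrower domain in KO (15.9 and 10.0 kb in WT, 8.53 and 8.59 kb in KO; −0.54 ± 0.26, adjusted p = 0.353).

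H3K27me3 domains in HSPCs gave no call between KO and WT (3.42% of all genes wider, 1.11% narrower), and the unadjusted p of 1 gene was under 0.05. That gene was Nkx2-5, with 69.4 and 69.6 kb in WT and 47.6 and 50.5 kb in KO (−0.50 ± 0.18, adjusted p = 0.258). Here the shorter side was downstream, 39.1 and 39.03 kb in WT against 21.6 and 21.6 kb in KO, while the upstream reach was 30.3 and 30.6 kb against 26.0 and 28.9 kb. The difference of the Tet2 effect on this domain between the cell types was 0.96 ± 0.26 (adjusted p = 0.0729; 4.05% of all genes higher, 0.614% lower), and 1.14 without mES KO replicate 1 (adjusted p = 0.0356). The other 9 genes ran from −0.14 (Foxa1) to 0.49 (Foxa2).

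**Figure D4:**
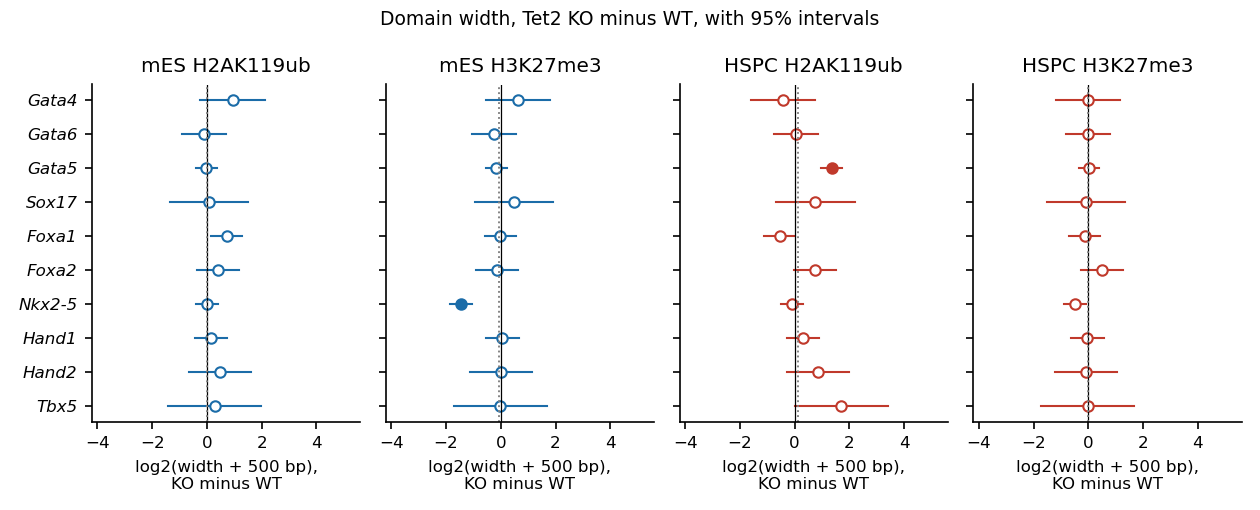
Change in log2(domain width + 500 bp), KO minus WT (horizontal axis), for each of the 10 genes (rows) in the 4 pairs of cell type and mark (panels); points are limma estimates with 95% intervals, filled where the adjusted p is under 0.05, and the dotted line is the median of all genes. Filled points are Nkx2-5 in mES H3K27me3 (−1.46) and Gata5 in HSPC H2AK119ub (1.36).

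In K562 cells the genes differed widely. HAND1 (chr5:154474972-154478227, hg38, minus strand) kept an H2AK119ub domain of 12.2 and 9.41 kb with siControl and 14.0 and 9.25 kb with siMBD6, and was the only one of the 10 genes with a fully covered start window in all 4 lists. NKX2-5 had 11.5 and 3.08 kb with siControl and 16.1 and 11.5 kb with siMBD6. FOXA1 and HAND2 had no domain in any list, and SOX17, FOXA2 and GATA4 had at most 1.49 kb. GATA5 (chr20:62463497-62475995, hg38, minus strand) switched between 21.2 kb and no domain within each group, since the peak at its start was called in 1 list of each, while 87.2 to 89.4 kb around it was covered in all 4.

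Depletion of MBD6 did not bring any of the 8 genes that could be tested past the threshold of limma for domain width (6.79% of 8305 genes were called wider and 0.747% narrower), and no unadjusted p was under 0.05. The median change was 0.16 and that of all genes 0.48, but the former was not stable: it ran from 0.19 to 0.77 with 1 library left out and was 0.51 when peaks were not joined. Covered length within 50 kb rose at 5 of the 10 genes, where 29.2% of 14898 genes rose, with a median of 0.62 against 0.48. GATA6 went from 9.60 and 10.8 kb to 19.7 and 24.4 kb (1.07 ± 0.15, adjusted p = 0.0375), NKX2-5 from 26.0 and 26.8 kb to 40.7 and 40.1 kb (0.60 ± 0.05, 0.0375), HAND1 from 26.98 and 25.1 kb to 40.2 and 37.5 kb (0.57 ± 0.07, 0.0375) and GATA4 from 24.5 and 21.3 kb to 33.6 and 33.0 kb (0.53 ± 0.09, 0.0381). The fifth, FOXA1, had no peak in the siControl lists and 0.676 and 0.635 kb with siMBD6, so no fold is given. At these genes both siMBD6 lists lay above both siControl lists, and the siMBD6 lists were the longer ones throughout. Span coverage was higher without overlap at 4 of the 10 genes (34.7% of all genes) and start window coverage at 2, GATA4 and FOXA2 (13.4%).

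**Figure D5:**
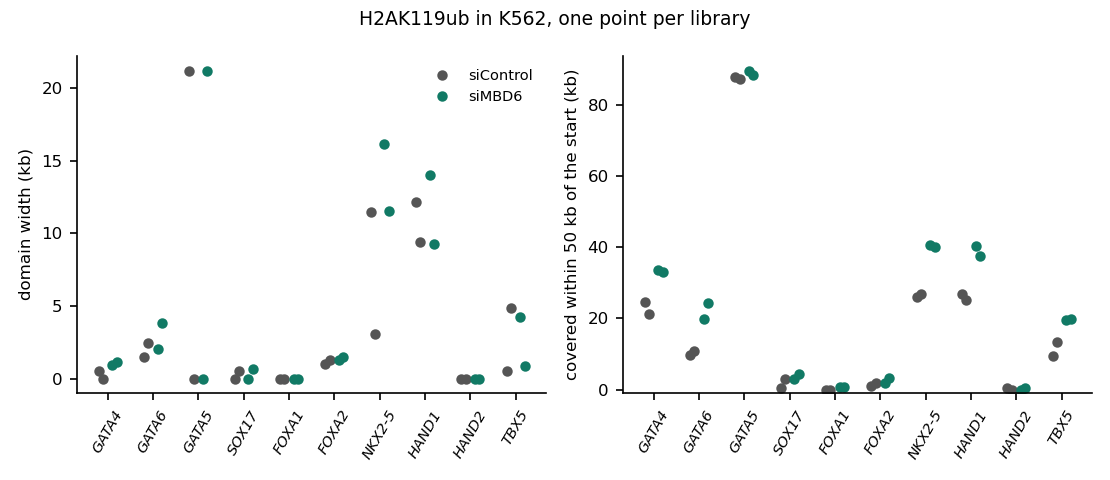
H2AK119ub in K562 cells at the 10 human genes (horizontal axis), as domain width (left) and as length covered within 50 kb on each side of the start (right), both in kb; each point is a library, siControl in grey and siMBD6 in green. HAND1, NKX2-5 and GATA5 carry the widest domains, and GATA6 shows the step from 9.60 and 10.8 kb to 19.7 and 24.4 kb.

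Other regulators of the same lineages are read against the shares of all genes, with no test between lists: 39.5% of all genes had wider and 18.6% narrower H3K27me3 domains in HSPCs, and 19.7% narrower H2AK119ub domains. Of 17 other endoderm regulators, 8 had wider and 2 narrower H3K27me3 domains in HSPCs than in mES cells, and 8 had narrower H2AK119ub domains. The 2 that fell were Hhex (−1.46 ± 0.27, adjusted p = 0.000975), which is also used in blood progenitors, and Cer1 (−0.75 ± 0.18, 0.00489), which has a domain of at most 0.501 kb in mES cells and none in HSPCs. Of 18 other cardiac regulators, 17 could be tested; 7 had wider H3K27me3 domains, close to the share of all genes, and 8 had narrower H2AK119ub domains in HSPCs. Within HSPCs H2AK119ub was the narrower mark at 13 and the wider at 2 of the endoderm regulators, and the narrower at 15 of the cardiac ones (22.7% of all genes narrower, 44.1% wider). The widest HSPC H3K27me3 domains were those of Cdx2 and Pdx1 (a shared domain, mean 71.5 kb) and of Tbx3 (67.0 kb) and Tbx1 (65.6 kb), while Mef2c had none.

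Of 10 products of heart and endoderm that are not regulators 8 could be tested, with the same shares of all genes to compare; H3K27me3 in HSPCs was wider at 1, the cardiac actin gene Actc1, and narrower at 3, the myosin genes Myh6 and Myh7 and the transthyretin gene Ttr, and H2AK119ub was narrower at 7. Their median H3K27me3 width in HSPCs was 2.20 kb, against 57.4 kb for the 10 regulators, 30.2 kb for the other endoderm and 28.0 kb for the other cardiac regulators. Alb and Afp, which encode liver secreted proteins, had no domain of either mark in any mouse list. Tnnt2, the cardiac troponin T gene, was the widest with 25.1 kb.

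In Tet2 KO cells, the lists gave few further calls. Tbx20 (2.03 ± 0.19, adjusted p = 0.00031) and Tbx18 (2.92 ± 0.51, 0.0106), T-box genes of the heart, had wider H2AK119ub domains in KO HSPCs. In that comparison 3.38% of all genes tested were called wider. It includes the short WT peak list, and no value without that list is given for Tbx20 or Tbx18. The part of list length in these calls was not tested. Nkx2-6, the relative of Nkx2-5, had a narrower H2AK119ub domain in KO mES cells (−2.36 ± 0.40, 0.0174), and Tbx3, whose H3K27me3 domain of 0.501 kb was present in 2 of 4 mES lists, was called narrower in KO (adjusted p = 0.0112), for which no fold is given. No other gene of these lists passed for KO against WT. In K562 cells, TBX20 was wider with siMBD6 (1.09 ± 0.09, adjusted p = 0.0297), where 6.79% of all genes tested were called wider and the siMBD6 lists were the longer ones. This call was lost when libraries were centred and under the replicate block, since no gene was called in either setting.

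The GATA genes that act in blood made a contrast within the family. Gata2 and Gata3 carried both marks over 20.2 to 38.9 kb in both cell types on average, with Gata2 at 24.4 kb of H2AK119ub and 20.2 kb of H3K27me3 in HSPCs, and Gata3 at 21.6 and 38.9 kb. Gata1, the erythroid factor, had at most 0.501 kb in any mouse list. H3K27me3 at Gata3 was wider in HSPCs (0.56 ± 0.16, adjusted p = 0.0119), and H2AK119ub was narrower than H3K27me3 there (−0.83 ± 0.16, 0.00105), both less than at Gata4 or Gata5. Gata6 was nearer to the blood genes in H3K27me3, with a change between cell types of 0.14 ± 0.25 and an HSPC domain of 19.5 kb. Its difference between the marks in HSPCs was −1.31 ± 0.25, larger than at Gata3. In K562 cells GATA3, GATA2 and GATA1 had mean widths of 8.09, 3.94 and 1.20 kb.

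The genes whose widths over the 16 mouse lists were most like those of each gene, by the root mean square difference of log2(width + 500 bp), were mostly other developmental regulators. The closest match was Hand1 with Otx1 (0.21), followed by Gata6 with Fgf9 (0.29), Gata5 with Cdx2 (0.32), Foxa2 with Emx2 (0.36) and Foxa1 with Nkx6-1 (0.39). Hand2 was nearest to Dio3 (0.46) and Nkx2-5 to Dbx1 (0.47), and Gata4 and Tbx5 were the least matched, with Cpeb1 and Hcn4 at 0.57 each. Within the set the closest pair was Foxa1 and Hand1 (0.50). Cdx2 had widths near those of Gata5 in each setting, 71.5 kb of H3K27me3 and 17.9 kb of H2AK119ub in HSPCs and 27.1 and 24.5 kb in mES cells. These values are descriptions over lists of the same cells and have no test.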

How the data were processed

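CUT&Tag peak lists of 16 mouse and 4 K562 libraries were used as deposited. According to the methods of the study, reads were trimmed (Trimmomatic), aligned to mm10 or hg38 with a Drosophila spike-in (Bowtie2) and freed of duplicates (Picard), and broad peaks were called by the authors with MACS2 in each library; the submitters' processing notes list Trimmomatic 0.39, Bowtie2 2.4.1 and HOMER 4.9, so the caller of these lists is not certain. The deposited files hold chromosome, start and end only, with no score, signal or count, and 30.4 to 41.4% of the peaks in a list are exactly 501 bp wide. Spike-in scaling cannot be recovered from them.

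From the positions, the share of each gene span (GENCODE M21 or 44) and of the start ± 1 kb under peaks was computed, and the domain width, the longest run of peaks joined across gaps of up to 1 kb that touches that window. Samples were grouped by their GEO labels. Widths as log2(width + 500 bp) were tested with limma 3.58.1 (trend; R 4.3.3) over genes with a domain in at least 2 libraries, in 1 fit of the 16 mouse libraries (8 groups, contrasts averaged over genotypes for cell types and marks) and 1 of the 4 K562 libraries, with Benjamini-Hochberg adjustment over all genes at 0.05. Coverage was compared by two-sided exact permutation tests, with the share of genes whose groups do not overlap beside them. The fits were tested on simulated data. Alternatives covered joining, windows, pseudowidth, filters, centring, equal list lengths, the samples fitted and the replicate block; the length covered within 50 kb on each side of the start was added after seeing the data, as were fits of WT libraries alone, a crossed replicate block and fits of both measures without HSPC WT H2AK119ub replicate 2. The 10 genes and the other lists were chosen with earlier results of these data known, so the lists are described and not tested. All 10 genes are named, as are the genes of other lists with the largest or smallest widths, the blood GATA genes, neighbours inside a domain and the gene over 200 kb away with the smallest root mean square difference; genes of those lists that passed a test were named after their values were seen. A few genes that these rules name are not reported here. Promoter bases are RefSeq GRCm38.p6 sequence.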

Additional observations from a re-analysis of the deposited data

Results flagged for a closer look

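At Gata5 the effect of Tet2 loss on the H2AK119ub domain differed between HSPCs and mES cells by a test of the difference itself (limma interaction 1.38 ± 0.24 on the log2 scale, adjusted p = 0.0147). In HSPCs the domain was 9.62 and 8.11 kb in WT and 25.4 and 21.6 kb in KO, and in mES cells it was 26.0 and 26.2 kb in WT and 26.1 and 25.3 kb in KO. The call held with each of the 8 H2AK119ub libraries left out in turn (1.27 to 1.5) and was lost in 8 of 21 alternatives. Beside it moved the length of the lists: HSPC WT replicate 2 covered 139 Mb and the other HSPC H2AK119ub lists 169 to 177 Mb, and without that list the difference was 1.27 (adjusted p = 0.0123).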

How the results depend on the processing

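With 2 libraries a group and no depth in the lists, small differences cannot be seen, and widths depend on how peaks are joined. Of 547 recomputed values over all 10 genes, 473 kept their value within the spread between replicates (counts within 1.5 times); of 2021 for single genes, 1892 kept direction and side of the threshold, 61 lost a call, 57 gained one and 11 reversed. The cause of each change was not tested. Median width changes (log2) moved as follows. H2AK119ub KO minus WT in mES cells was 0.084 unjoined, 0.017 at 3 kb joining, 0.11 with equal lists or peaks in both replicates, and 0.013 within 50 kb; H3K27me3 was −0.20 in mES cells and 0.10 in HSPCs unjoined. K562 gave 0.51 unjoined, 0.43 at 3 kb, 0.87 with peaks of at least 1 kb, −0.028 centred and 0.62 within 50 kb. HSPC minus mES was −0.80 for H2AK119ub within 50 kb, and 0.70 at 3 kb, 2.15 centred and 0.36 within 50 kb for H3K27me3. H2AK119ub minus H3K27me3 in mES cells was −0.60 unjoined, −0.28 at 3 kb, −0.93 with equal lists, −0.15 centred, −0.41 within 50 kb and −1.14 in WT alone; in HSPCs it was −1.39 at 3 kb, −2.74 centred, −1.54 within 50 kb (−1.32 without HSPC WT H2AK119ub replicate 2), −2.64 in WT alone and −2.68 with peaks in both replicates. Coverage medians moved to 5.67 (K562) and −5.60 (mES, between marks) with 2-kb windows, and span medians between marks to −2.91 (mES) and −17.8 (HSPC) with joined peaks. Calls among the 10 genes became, for KO against WT, 1 from the coding start (mES H2AK119ub), 0 unjoined, at 3 kb or within 50 kb (mES H3K27me3), and 3, 0 and 2 in the same order (HSPC H2AK119ub); 5 within 50 kb (K562); for HSPC against mES, 7, 5 and 8 (H2AK119ub) and 3 in WT alone (H3K27me3); between marks in mES cells, 4 unjoined, 3 at 3 kb, 4 with peaks of at least 1 kb or centred and 3 in WT alone; for the Tet2 effect between cell types, 0 for H2AK119ub at 3 kb, centred, with 2-kb windows, per mark, under the replicate block and within 50 kb, and 1 for H3K27me3 centred or unfiltered. Reversed values were Gata4 in HSPC H2AK119ub, KO minus WT, 1.65 unjoined, 0.75 within 50 kb and 0.52 within 50 kb without HSPC WT H2AK119ub replicate 2; Nkx2-5 and Sox17, HSPC minus mES, −0.43 (H2AK119ub) and 0.84 (H3K27me3) unjoined; and between marks, Nkx2-5 0.094 unjoined and 0.10 centred and Hand1 0.47 centred and 0.70 within 50 kb in mES cells, and Hand1 0.12 within 50 kb in HSPCs (0.24 without that library). Leaving out 1 library gave medians of 0.094 to 0.34 (mES H2AK119ub, KO minus WT), −0.060 to 0.76 (HSPC H2AK119ub) and 0.19 to 0.77 (K562), calls of 1 to 4 (HSPC H2AK119ub), 3 to 6 (H2AK119ub between cell types), 1 to 2 and 0 to 1 (Tet2 effect, H2AK119ub and H3K27me3), and window medians of 0 to 20.5 (HSPC H2AK119ub), 0 to 14.6 (K562) and −15.3 to −2.27 (HSPC, between marks).

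Replicate numbers did not pair the libraries: deviations of same-numbered libraries correlated at −0.127 to 0.0258. With the replicate block the calls among the 10 genes were 0, 1, 1, 0 and 0 for mES H2AK119ub, mES H3K27me3, HSPC H2AK119ub, HSPC H3K27me3 and K562, and 4, 6, 6 and 10 for H2AK119ub and H3K27me3 between cell types and for marks in mES cells and HSPCs. Crossing the pairs in mES H3K27me3, an alternative chosen after seeing the data, gave 301 calls over all genes against 219, and 1 among the 10 under both.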
